A study of Mus musculus with 4 samples.

Results

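Of the 494 predicted small RNA sequences in the small RNA profiles of adipose tissue exosomes, 124 reached a norm value of 10 or more in at least 1 of 4 libraries, and these 124 are described here as predicted entries. They were chosen by their name, which starts with PC- where the mapping program predicted a small RNA that matched no annotated miRNA, by the absence of their sequence from every entry with a mouse miRNA name, and by that norm value. Among all 1482 sequences of the table, 697 carried a mouse miRNA name and 291 the name of another species. The other 370 predicted sequences stayed below a norm value of 10 in every library. Since the norm values themselves chose the 124 entries, their levels and the differences between libraries are given as a description.

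Exosomes were isolated from cultured explants of brown adipose tissue (BAT-Exos) and visceral white adipose tissue (vWAT-Exos) of wild-type C57BL/6 (B6) mice. The HFD BAT-Exos and HFD vWAT-Exos libraries came from mice fed a high-fat diet (HFD), and the LFD BAT-Exos and LFD vWAT-Exos libraries from mice fed a low-fat diet (LFD), both for 4 months. An age of 6 weeks is given, without saying whether it was the age at the start of the diet. There was 1 library for each combination of diet and depot, and the sources used here do not say whether a library pooled several mice. With 1 library per group, no difference below has a replicate check, and no p-value was computed. An explant holds blood vessels, immune cells and neighbouring tissue beside adipocytes, so that fewer vesicles from a cell type and less RNA per vesicle cannot be told apart.

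A miRNA is cut from a hairpin precursor by Drosha in the nucleus and Dicer in the cytoplasm, which leaves a duplex of a 5p and a 3p strand with short 3′ overhangs. One strand is usually retained by an Argonaute protein, and the other is mostly degraded. Programs that predict miRNAs from sequencing reads take reads that match no known miRNA and look for a flanking sequence that could fold into a hairpin. Fragments of ribosomal RNA, transfer RNA or messenger RNA can pass such a search, which is why reads from both strands of one hairpin are commonly asked for before a predicted entry is called a miRNA. Exosome preparations carry many fragments of longer RNAs beside miRNAs.

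The libraries differed in depth, and this bears on every comparison of entries with low values. The norm value of 1 read was approximately 0.706 in HFD BAT-Exos, 0.825 in LFD BAT-Exos, 2.37 in HFD vWAT-Exos and 1.36 in LFD vWAT-Exos, inferred from the number that ends the name of each predicted entry. A norm value of 10 then stood for 14.2, 12.1, 4.22 and 7.34 reads in the same order of libraries. Few values under 5 reads were listed, so that a predicted entry listed at 0 in HFD vWAT-Exos could have had a norm value of up to about 11.8, against 3.53 in HFD BAT-Exos, 4.13 in LFD BAT-Exos and 6.81 in LFD vWAT-Exos. The norm values of each library summed to 5832550, 5650701, 2839846 and 2585590 in the order above. miRNAs of the brown fat list (miR-378a-3p, miR-193b-3p and miR-365-3p) summed to 2135741 in HFD BAT-Exos and 2144828 in LFD BAT-Exos, against 116099 in HFD vWAT-Exos and 73629 in LFD vWAT-Exos, which fits the depot labels.

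Predicted entries were numerous and scarce. They held 0.395% of the norm total of HFD BAT-Exos, 0.492% of LFD BAT-Exos, 0.402% of HFD vWAT-Exos and 0.393% of LFD vWAT-Exos, so that their summed share varied little between depots or diets. The number listed above 0 did vary. Of the 124 entries, 103 (83.1%) were listed in HFD BAT-Exos, 116 (93.5%) in LFD BAT-Exos, 48 (38.7%) in HFD vWAT-Exos and 63 (50.8%) in LFD vWAT-Exos. Of the sequences with a mouse miRNA name, 75.3%, 75.6%, 61.1% and 69.3% were listed in that order. The vWAT-Exos libraries were the shallower. Moreover, 64 entries had reached 10 in a BAT-Exos library alone, against 9 in a vWAT-Exos library alone. A median listed entry had a norm value of 20.5, 26.4, 21.3 and 17.7 in that order of libraries, whereas the median listed sequence with a mouse miRNA name had 96.0, 120, 199 and 136.

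A single sequence made up a large part of the sum. PC-3p-176_48011, of 18 bases, had a norm value of 14000 in HFD BAT-Exos, 14583 in LFD BAT-Exos, 4256 in HFD vWAT-Exos and 3849 in LFD vWAT-Exos, which was 60.7%, 52.5%, 37.3% and 37.9% of the sum over the predicted entries. It ranked 40, 41, 69 and 72 among all sequences of these libraries, in the range of established miRNAs. Without it, the predicted entries held 0.155% of the norm total of HFD BAT-Exos, 0.234% of LFD BAT-Exos, 0.252% of HFD vWAT-Exos and 0.244% of LFD vWAT-Exos, and the share was then lowest in HFD BAT-Exos.

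The next entries by mean norm value separated the libraries in different ways. PC-3p-854_9472 had a norm value of 1243 in HFD BAT-Exos, 4672 in LFD BAT-Exos, 2059 in HFD vWAT-Exos and 1079 in LFD vWAT-Exos, so that LFD BAT-Exos stood above the other libraries. PC-3p-4846_1183 had 217, 429, 1595 and 1094 in the same order, with both vWAT-Exos libraries above both BAT-Exos libraries. PC-3p-3327_1881 had 1009, 1111, 462 and 541, and PC-5p-4503_1296 had 1279, 911, 441 and 332, both with the BAT-Exos libraries on top. PC-3p-5175_1086 was the most uneven of the 10 with the highest means, at 55.0 in HFD BAT-Exos, 117 in LFD BAT-Exos, 858 in HFD vWAT-Exos and 1339 in LFD vWAT-Exos.

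Below these, the levels dropped quickly. PC-5p-4058_1471 had a norm value of 567 in HFD BAT-Exos, 901 in LFD BAT-Exos, 225 in HFD vWAT-Exos and 259 in LFD vWAT-Exos. PC-5p-11455_415 had 306, 513, 64.0 and 133, and PC-3p-6324_845 had 147, 280, 118 and 124 in that order. PC-5p-11667_405 was even across the libraries, at 96.7 in HFD BAT-Exos, 136 in LFD BAT-Exos, 107 in HFD vWAT-Exos and 85.8 in LFD vWAT-Exos. Altogether 25 entries reached 100 in at least 1 library and 6 reached 1000, while the highest value stayed under 20 in 41 entries and under 15 in 24. Just inside the norm value of 10 lay PC-5p-209122_11 at 10.6 and PC-3p-25508_161 and PC-5p-130734_22 at 10.7, and just outside it PC-3p-210703_10, PC-5p-149547_18 and PC-5p-196272_12 at 9.90. A further 77 predicted sequences peaked between 5 and 10, so that the number of entries is set by the cutoff more than by a gap in the values.

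**Figure D1:**
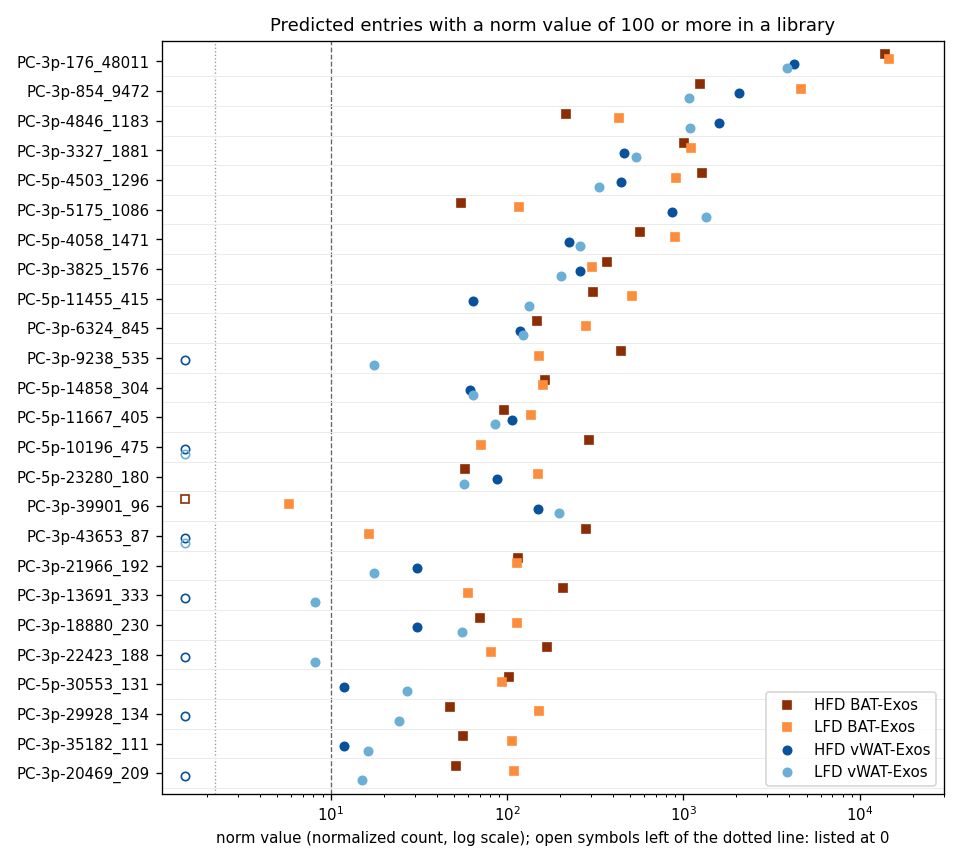
Norm value (log axis) of the 25 predicted entries that reached 100 in at least 1 library, ordered by mean. Squares are the HFD BAT-Exos and LFD BAT-Exos libraries, circles the HFD vWAT-Exos and LFD vWAT-Exos libraries, open symbols mark values listed at 0, and the dashed line marks the norm value of 10. PC-3p-176_48011 stands above all others, and PC-3p-4846_1183, PC-3p-5175_1086 and PC-3p-39901_96 have their circles to the right of their squares.

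The predicted entries did not have the lengths of miRNAs. Their median length was 19 bases (range 18 to 25), against 22 bases for sequences with a mouse miRNA name. Of the 124 entries, 94 (75.8%) had 18 or 19 bases, at the lower end of the lengths in the table, compared with 7.60% of the mouse miRNA sequences. Lengths of 21 to 23 bases, which Dicer products usually have, were found for 11 entries (8.87%), compared with 76.9% of the mouse miRNA sequences. By abundance the tilt rested in large part on 1 entry. Entries of 18 bases held 76.7% of the summed norm value of the predicted entries in HFD BAT-Exos, 76.6% in LFD BAT-Exos, 60.4% in HFD vWAT-Exos and 56.6% in LFD vWAT-Exos. Without PC-3p-176_48011 the shares were 40.7%, 50.8%, 36.9% and 30.1% in that order. The only entry of 25 bases, PC-3p-39901_96, was mainly a vWAT-Exos entry, with a norm value of 0 in HFD BAT-Exos, 5.78 in LFD BAT-Exos, 149 in HFD vWAT-Exos and 196 in LFD vWAT-Exos.

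**Figure D2:**
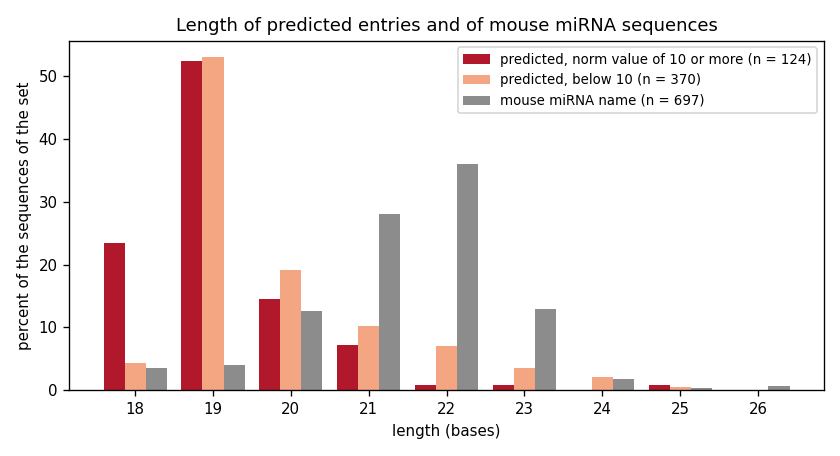
Percent of the sequences of each set (vertical axis) by length in bases (horizontal axis), for the 124 predicted entries with a norm value of 10 or more, the 370 predicted sequences below it and the 697 sequences with a mouse miRNA name. The predicted sets peak at 19 bases, with 52.4% and 53.0% of their sequences, and the mouse miRNA set at 22 bases, with 36.0%.

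Base composition separated the sets less than length did. The first base was T (U in the RNA) in 29 entries (23.4%) and A in 46 (37.1%), compared with 39.0% and 28.7% of the mouse miRNA sequences, in which a 5′ U is the base that Argonaute proteins commonly prefer. Median GC content was 50% in both sets. It ranged from 27.8% to 95% over the predicted entries, and 4 of them had 75% or more. The program had named 61 entries as 5p and 63 as 3p, and an end of 3 T, as left when RNA polymerase III stops, was present in 9 entries (7.26%) and in 4.30% of the mouse miRNA sequences.

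Few predicted entries could be placed in annotated mouse transcripts. Of the 124 entries, 2 (1.61%) matched a transcript of the GENCODE M21 mouse annotation exactly, whereas 610 of the 697 mouse miRNA sequences (87.5%) did. The share was 1.62% for the predicted sequences below a norm value of 10 and 14.4% for sequences named after another species. With 1 mismatch allowed, 4 entries matched a small RNA transcript or a RefSeq hairpin on either strand, and 1 of these on the sense strand, compared with 693 mouse miRNA sequences. The contrast with the mouse miRNA sequences was largely fixed beforehand. Those sequences carry the names of annotated miRNAs, whereas the predicted entries are sequences that matched none. None of the entries matched the promoter windows of RefSeq genes, from 250 bases before to 50 bases after the start of a gene. Introns, intergenic sequence and genomes other than the mouse were not searched, since no genome sequence was used here, and whether the other entries came from the mouse or from another organism was not tested. This holds for PC-3p-176_48011 and most of the other abundant entries too, so that their levels and depot differences are those of sequences of unknown origin.

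Both exact matches overlapped an annotated ribosomal RNA gene. PC-3p-11610_408 lay in the mitochondrial 12S ribosomal RNA gene mt-Rnr1, on chromosome M from 611 to 629 of the plus strand (GRCm38). It had a norm value of 0 in HFD BAT-Exos, 8.25 in LFD BAT-Exos, 16.6 in HFD vWAT-Exos and 12.3 in LFD vWAT-Exos, and these values stood for few reads. PC-3p-29161_138 lay on chromosome 17 from 39847697 to 39847715 of the plus strand, a stretch annotated as the noncoding RNA gene Gm42418 in sense and as AY036118 and the ribosomal RNA gene CT010467.1 in antisense. Its norm values were 0 in HFD BAT-Exos, 12.4 in LFD BAT-Exos, 52.1 in HFD vWAT-Exos and 49.0 in LFD vWAT-Exos. Genes of the brown fat, white fat and muscle lists (10 genes each) held none of the entries.

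A handful of entries resembled known miRNAs. PC-3p-9238_535 held the whole of miR-203b-3p with 1 further base, and its norm value was 442 in HFD BAT-Exos, 151 in LFD BAT-Exos, 0 in HFD vWAT-Exos and 17.7 in LFD vWAT-Exos. miR-203b-3p itself had 1613, 522, 85.3 and 68.1 in that order. The longer form thus stood at 27.4%, 28.9% and 26.0% of miR-203b-3p in the libraries other than HFD vWAT-Exos, the last from approximately 13 reads. It was listed at 0 in HFD vWAT-Exos although miR-203b-3p was listed there, so a similar share did not extend to every library. miR-203 belongs to the epithelial marker list, and miR-203-3p had a norm value of 5261 in HFD BAT-Exos, 3266 in LFD BAT-Exos, 2135 in HFD vWAT-Exos and 1788 in LFD vWAT-Exos.

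PC-3p-3825_1576 shared its first 19 bases with miR-23a-3p, an abundant miRNA of many tissues, and 14 or more bases in a row with miR-23b-3p. It departed from the listed 20-base form of miR-23a-3p after those 19 bases, so the form that it held, or lay within, was that of miR-23b-3p. Levels were set beside miR-23a-3p only. The entry had a norm value of 369 in HFD BAT-Exos, 304 in LFD BAT-Exos, 258 in HFD vWAT-Exos and 203 in LFD vWAT-Exos, against 162236, 128769, 169326 and 121750 for miR-23a-3p. It was 0.227% and 0.236% of miR-23a-3p in HFD BAT-Exos and LFD BAT-Exos and 0.153% and 0.167% in HFD vWAT-Exos and LFD vWAT-Exos. PC-3p-53237_69 shared its first 18 bases with let-7b-5p and was listed in the HFD libraries only, at 17.6 in HFD BAT-Exos and 11.8 in HFD vWAT-Exos. PC-5p-74606_47 shared its first 16 bases with miR-378a-3p, the most abundant miRNA of BAT-Exos, and was listed in the BAT-Exos libraries only, at 14.1 in HFD BAT-Exos and 25.6 in LFD BAT-Exos. These 4 were the only entries that shared 14 or more bases in a row with a mouse miRNA sequence.

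Pairing and overlap within the set were also searched. Of the 124 entries, 1, PC-5p-64770_55, could pair over 12 or more bases with another predicted sequence, PC-3p-413451_5. Partners were sought among predicted sequences only, and 6 of the 697 mouse miRNA sequences had one there. Pairs between mouse miRNA sequences were not searched, so how often the search finds the strands of a known miRNA was not tested. PC-5p-64770_55 had a norm value of 38.8 in HFD BAT-Exos and 92.9 in LFD BAT-Exos and was listed at 0 in both vWAT-Exos libraries. Its partner was listed in LFD BAT-Exos only, at 2.06. Beside this, 14 entries overlapped another entry by 14 or more bases, in 7 pairs, and such pairs are not independent. In the pair PC-3p-39901_96 and PC-5p-152359_18 both entries were highest in vWAT-Exos. PC-5p-152359_18 was listed at 0 in both BAT-Exos libraries, at 21.3 in HFD vWAT-Exos and at 24.5 in LFD vWAT-Exos. Another pair, PC-3p-21966_192 and PC-5p-30553_131, was highest in BAT-Exos, with 116 and 102 in HFD BAT-Exos, 114 and 94.1 in LFD BAT-Exos, 30.8 and 11.8 in HFD vWAT-Exos, and 17.7 and 27.2 in LFD vWAT-Exos.

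Most predicted entries were higher in BAT-Exos than in vWAT-Exos. Entries with a norm value of 10 or more in at least 1 of the 2 libraries compared were called higher or lower at a difference of 2-fold or more, and log2 ratios were taken after adding 1 to each norm value. On HFD, 67 of 100 entries (67%) were higher in BAT-Exos and 17 (17%) lower, beside 42.2% higher and 31.2% lower over the 709 sequences of the whole table that met the same condition. The median log2 ratio was 3.66 for the entries and 0.42 for all sequences. On LFD, 90 of 110 entries (81.8%) were higher in BAT-Exos and 6 (5.45%) lower, beside 41% higher and 24.4% lower over 712 sequences, and the median log2 ratio was 2.59 for the entries and 0.44 for all sequences.

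Depth moved with this difference. Of the entries higher in BAT-Exos, 52 on HFD and 48 on LFD were listed at 0 in vWAT-Exos, where the lowest usually listed value lay at 11.8 on HFD and 6.81 on LFD. With each 0 replaced by the norm value of 5 reads in that library, 37 of 100 entries remained at least 2-fold higher in BAT-Exos on HFD and 79 of 110 on LFD. Over all sequences under the same replacement, 217 of 709 were higher on HFD and 265 of 712 on LFD. Lower in BAT-Exos were 17 entries and 221 of all sequences on HFD, and 6 entries and 174 of all sequences on LFD. Among entries listed in both libraries, the median log2 ratio was 0.61 on HFD (36 entries) and 1.38 on LFD (61 entries). On both diets together, 50 entries were listed at 0 in both vWAT-Exos libraries and 41 of these were above 0 in both BAT-Exos libraries. Of the 50, 28 had a value in HFD BAT-Exos at or above the norm value of 5 reads in HFD vWAT-Exos, 45 had one in LFD BAT-Exos at or above that of LFD vWAT-Exos, and 24 had both. How much of the difference depth accounts for was not tested beyond these counts.

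The choice of scale mattered as well, because the BAT-Exos norm totals were larger. With every library scaled to the same total, 56 entries were higher and 23 lower in BAT-Exos on HFD, which is 70.9% of the differing entries, compared with 79.8% as deposited. Over all sequences the share of differing sequences that were higher in BAT-Exos dropped to 41.9% on this scale, compared with 57.5% as deposited, and the median log2 ratio of all sequences moved to -0.61. On LFD the counts were 63 higher and 9 lower, and the median log2 ratio of all sequences moved to -0.68. With median-of-ratios scaling over 384 mouse miRNA sequences, the counts stayed near those deposited, at 66 higher and 17 lower on HFD, and 90 and 6 on LFD. On each scale the share of differing sequences that were higher in BAT-Exos was larger for the entries than for all sequences. The entries had been chosen by these same values, 64 through a BAT-Exos library alone and 9 through a vWAT-Exos library alone. Rescaling the chosen values is therefore a description and no check of the depot difference. Scaling leaves a value of 0 at 0, and 52 of the 67 higher entries on HFD and 48 of the 90 on LFD had 0 in vWAT-Exos. Equal totals were not combined with another treatment of 0.

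The larger entries did not depend on values at 0. PC-3p-176_48011 was 3.29-fold higher in BAT-Exos on HFD (95% interval 3.13 to 3.45, exact binomial on the approximate reads, covering counting error only) and 3.79-fold higher on LFD (3.64 to 3.94). PC-5p-11455_415 was 4.79-fold higher on HFD (3.24 to 7.35) and 3.85-fold on LFD (3.10 to 4.81). PC-5p-4503_1296 was 2.90-fold higher on HFD (2.49 to 3.39) and 2.74-fold on LFD (2.39 to 3.16). For these entries the ratio on each diet was of similar size, but it was smaller with libraries scaled to the same total. The log2 ratio was then 0.68 on HFD and 0.79 on LFD for PC-3p-176_48011, 1.22 and 0.82 for PC-5p-11455_415, and 0.50 and 0.33 for PC-5p-4503_1296, so that of these only PC-5p-11455_415 on HFD kept a 2-fold difference. PC-3p-35182_111, at 56.4 in HFD BAT-Exos and 107 in LFD BAT-Exos, against 11.8 in HFD vWAT-Exos and 16.3 in LFD vWAT-Exos, had ratios of 4.76 on HFD (1.96 to 15.1) and 6.57 on LFD (3.63 to 13.0), and log2 ratios of 1.21 and 1.59 on the scale of equal totals. PC-3p-3327_1881 was 2.18-fold higher on HFD (1.88 to 2.55) and 2.05-fold on LFD (1.84 to 2.30), and on the scale of equal totals its log2 ratio on LFD turned to -0.089.

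Other entries were seen almost only in BAT-Exos. PC-5p-10196_475 had the highest value among entries at 0 in both vWAT-Exos libraries, 291 in HFD BAT-Exos and 71.0 in LFD BAT-Exos. PC-3p-43653_87 had 280 in HFD BAT-Exos and 16.5 in LFD BAT-Exos and was also listed at 0 in both vWAT-Exos libraries. PC-3p-13691_333 had 207 in HFD BAT-Exos and 60.3 in LFD BAT-Exos, against 0 in HFD vWAT-Exos and 8.17 in LFD vWAT-Exos. PC-3p-22423_188 had 168 in HFD BAT-Exos and 80.9 in LFD BAT-Exos, against 0 in HFD vWAT-Exos and 8.17 in LFD vWAT-Exos. The values of these entries in HFD BAT-Exos lay above 100, against the norm value of 5 reads of 11.8 in HFD vWAT-Exos, while that of PC-3p-43653_87 in LFD BAT-Exos lay nearer to the 6.81 of LFD vWAT-Exos.

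**Figure D3:**
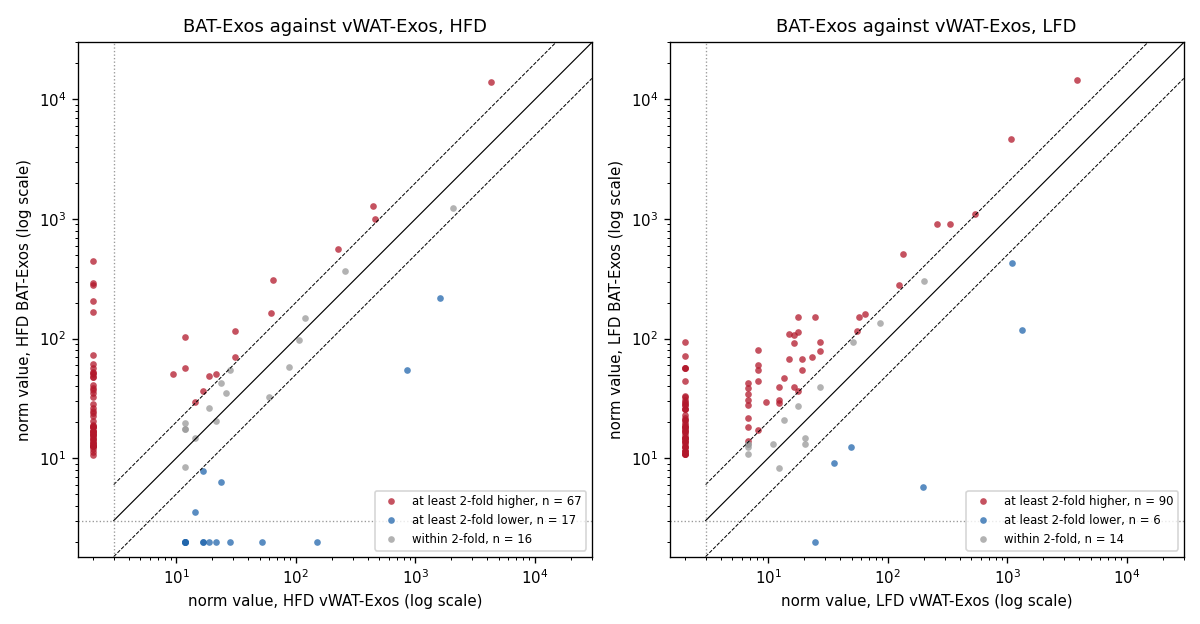
Norm value of each predicted entry in BAT-Exos (vertical axis, log scale) against vWAT-Exos (horizontal axis, log scale), on HFD at the left and on LFD at the right, with the line of equality and dashed lines at 2-fold. Points beyond the dotted lines were listed at 0. On HFD 67 entries lay at least 2-fold higher and 17 lower in BAT-Exos, and on LFD 90 lay higher and 6 lower.

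Fewer entries lay on the vWAT-Exos side. Of 86 entries that met the condition on both diets, 53 were higher in BAT-Exos on both, 5 were lower on both and 4 changed side. This count was not made over all sequences of the table, so no share stands beside it. The 5 that were higher in vWAT-Exos on both diets were PC-3p-4846_1183, PC-3p-5175_1086, PC-3p-39901_96, PC-3p-29161_138 and PC-5p-152359_18. PC-3p-5175_1086 was 15.6-fold lower in BAT-Exos than in vWAT-Exos on HFD and 11.4-fold lower on LFD, and PC-3p-4846_1183 was 7.36-fold lower on HFD and 2.55-fold lower on LFD, with log2 ratios of -3.92 and -2.48 on the scale of equal totals. PC-3p-39901_96 was 33.9-fold lower in LFD BAT-Exos than in LFD vWAT-Exos, from approximately 7 and 144 reads, and was listed at 0 in HFD BAT-Exos. PC-3p-5175_1086 had a GC content of 95%, the highest of all 124 entries, PC-3p-4846_1183 of 73.7% and PC-3p-39901_96 of 56%, and the others of 52.6% and 50%. The sum over the leukocyte miRNAs miR-142a-3p, miR-223-3p and miR-150-5p (3 of 3 found) was also higher in vWAT-Exos, at 1840 in HFD BAT-Exos and 2517 in LFD BAT-Exos, against 18985 in HFD vWAT-Exos and 19598 in LFD vWAT-Exos. miR-142a-3p and miR-150-5p followed the sum, while miR-223-3p had a norm value of 633 in HFD BAT-Exos and 1070 in LFD BAT-Exos, against 659 in HFD vWAT-Exos and 680 in LFD vWAT-Exos. Their part in the levels of these entries was not tested.

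Entries chosen in the libraries of 1 diet were described in the libraries of the other, and most lay on the BAT-Exos side there. Of 110 predicted sequences that reached a norm value of 10 in an LFD library, 101 were listed in an HFD library, and 84 of these were above and 17 below in HFD BAT-Exos relative to HFD vWAT-Exos. Of 100 chosen in the HFD libraries, 94 were listed on LFD, with 84 above and 10 below in LFD BAT-Exos. Mouse miRNA sequences chosen in the same way were spread more evenly, with 252 above and 212 below in HFD BAT-Exos for those chosen on LFD, and 239 above and 233 below in LFD BAT-Exos for those chosen on HFD. Many of the predicted sequences were listed in only 1 of the 2 libraries. Among those listed in both, 24 of 35 predicted sequences were above in HFD BAT-Exos, against 197 of 390 mouse miRNA sequences. In LFD BAT-Exos these counts were 49 of 57 and 201 of 417. Of the 90 entries at least 2-fold higher in BAT-Exos on LFD, 75 were above in HFD BAT-Exos, 8 below and 7 listed at 0 in both HFD libraries. Of 146 mouse miRNA sequences chosen in that way, 132 were above, 7 below and 7 at 0 in both. The vWAT-Exos side of the predicted entries was less even. All 6 entries that were lower in BAT-Exos on LFD were below in HFD BAT-Exos too. Of the 17 entries that were lower in BAT-Exos on HFD, 8 were below and 6 above in LFD BAT-Exos and 3 were listed at 0 in both LFD libraries. The depth of the BAT-Exos libraries exceeded that of the vWAT-Exos libraries on both diets, and this description shares that feature.

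Diet differences in BAT-Exos were smaller and leaned to LFD. Of 115 entries, 17 (14.8%) were higher on HFD by 2-fold or more and 39 (33.9%) lower, beside 12.7% higher and 22.4% lower over 684 sequences of the table. The median log2 ratio was -0.67 for the entries and -0.074 for all sequences. Among the 24 entries with a norm value of 100 or more in a BAT-Exos library, 5 were higher, 5 lower and 14 within 2-fold, with a median log2 ratio of -0.31. Levels in HFD BAT-Exos and LFD BAT-Exos ran together, with a Spearman rho of 0.690 across the 100 entries listed in both.

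The 17 entries higher in HFD BAT-Exos summed to 1763 in HFD BAT-Exos and 493 in LFD BAT-Exos, against 33.2 in HFD vWAT-Exos and 96.7 in LFD vWAT-Exos, and 9 of them were listed at 0 in both vWAT-Exos libraries, as were 21 of the 39 entries lower in HFD BAT-Exos. Among those with a norm value of 100 or more, PC-3p-43653_87 had the largest ratio, 17.0-fold higher on HFD (95% interval 10.8 to 28.1), followed by PC-5p-10196_475 at 4.10-fold (3.24 to 5.23), PC-3p-13691_333 at 3.43-fold (2.65 to 4.50), PC-3p-9238_535 at 2.92-fold (2.48 to 3.47) and PC-3p-22423_188 at 2.08-fold (1.63 to 2.65). Striated muscle miRNAs moved in the same direction between these 2 libraries. Their sum over 6 of 6 (miR-1a-3p, miR-133a-3p, miR-133b-3p, miR-206-3p, miR-208b-3p and miR-499-5p) was 22933 in HFD BAT-Exos and 4193 in LFD BAT-Exos, a ratio of 5.47, against 1385 in HFD vWAT-Exos and 1560 in LFD vWAT-Exos, and miR-208b-3p was listed at 0 in HFD vWAT-Exos. Their part in the diet difference of these entries was not tested.

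The 39 entries lower in HFD BAT-Exos summed to 1719 in HFD BAT-Exos and 6190 in LFD BAT-Exos, and most of that sum was PC-3p-854_9472, which was 3.76-fold lower on HFD. PC-3p-29928_134 was 3.19-fold lower, with a norm value of 47.3 in HFD BAT-Exos and 151 in LFD BAT-Exos. PC-5p-23280_180 was 2.60-fold lower, with 57.9 in HFD BAT-Exos and 150 in LFD BAT-Exos, and PC-3p-20469_209 was 2.12-fold lower, with 51.5 and 109 in that order. None of these lay near the lowest listed values. Epithelial miRNAs (7 of 7 found) summed to 5977 in HFD BAT-Exos and 8547 in LFD BAT-Exos. miR-203-3p was higher on HFD, as given above, and the sum over the other 6 was 716 in HFD BAT-Exos and 5281 in LFD BAT-Exos, against 4960 in HFD vWAT-Exos and 1988 in LFD vWAT-Exos. Their part in the diet difference was not tested. The 59 entries within 2-fold held most of the norm value, 19567 in HFD BAT-Exos and 21078 in LFD BAT-Exos, of which PC-3p-176_48011 was the largest at a ratio of 0.960.

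**Figure D4:**
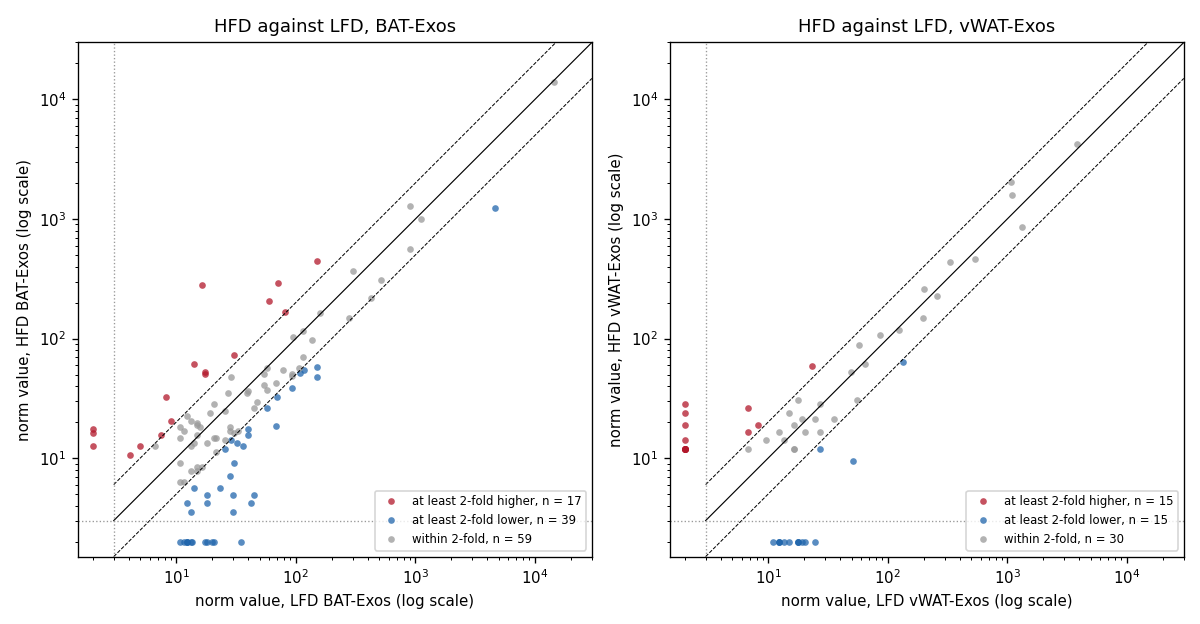
Norm value of each predicted entry on HFD (vertical axis, log scale) against LFD (horizontal axis, log scale), in BAT-Exos at the left and vWAT-Exos at the right, with the line of equality and dashed lines at 2-fold. Points beyond the dotted lines were listed at 0. In BAT-Exos 17 entries lay at least 2-fold higher and 39 lower on HFD, and in vWAT-Exos 15 lay higher and 15 lower, most of them at 0 in 1 library.

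In vWAT-Exos the diets differed little among entries with more than a few reads. Of 60 entries, 15 (25%) were higher on HFD and 15 (25%) lower, beside 11.8% higher and 17.3% lower over 611 sequences, and the median log2 ratio was 0.074 for the entries and -0.036 for all sequences. Most of these rested on a value of 0, since 11 of the 15 higher entries were at 0 in LFD vWAT-Exos and 12 of the 15 lower ones at 0 in HFD vWAT-Exos. Of the 12 entries with a norm value of 100 or more, none was higher and 1, PC-5p-11455_415, was lower on HFD, at 64.0 in HFD vWAT-Exos and 133 in LFD vWAT-Exos (ratio 0.479, 95% interval 0.301 to 0.740). Levels on the diets ran together, with a Spearman rho of 0.820 across the 37 entries listed in both.

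Few entries showed the same diet difference in both depots. Of 51 entries that met the condition in both, 1 was higher on HFD in both, 7 were lower in both and 5 changed side. The entry higher in both was PC-3p-53237_69, the sequence that resembles let-7b-5p, and it was listed at 0 in both LFD libraries. Its value of 11.8 in HFD vWAT-Exos stood for approximately 5 reads. With the norm value of 5 reads in LFD vWAT-Exos at 6.81, the 0 there could hide a difference of less than 2-fold. All 7 that were lower in both, among them PC-3p-29928_134, PC-3p-20469_209 and PC-5p-32194_123, were listed at 0 in HFD vWAT-Exos, the shallowest library. PC-5p-32194_123 had a norm value of 18.7 in HFD BAT-Exos and 68.1 in LFD BAT-Exos, and of 0 in HFD vWAT-Exos and 19.1 in LFD vWAT-Exos. Among the 31 entries listed in all libraries, none had the same 2-fold diet difference in both depots, whereas 13 were higher in BAT-Exos and 2 lower on both diets. The counts over both depots and over both diets were not made for all sequences of the table.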

How the data were processed

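The deposited table, as made by the authors, holds 1 normalized signal per entry and library, named norm value and given as a normalized count. Per the labels, small RNA libraries (TruSeq Small RNA kit, Illumina HiSeq) were processed with ACGT101-miR, which removed adapter dimers, low complexity reads, common RNA families (rRNA, tRNA, snRNA and snoRNA) and repeats, so that fragments of these RNAs were depleted before entries were predicted. The build named in the labels is GRCh38, a build of the human genome. The sources used here do not give the normalization.

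Each sequence was taken once from the 1640 entries. The number at the end of the name of a predicted entry listed in 1 library alone was taken as its reads, and the value of 1 read was the most frequent quotient of norm value and reads. This rested on 100 of 112 such entries in HFD BAT-Exos, 127 of 146 in LFD BAT-Exos, 3 of 3 in HFD vWAT-Exos and 2 of 5 in LFD vWAT-Exos, so that the depth of the vWAT-Exos libraries is least secure. The approximate depths were 8265829, 6846014, 1198338 and 1898620 reads in that order. Dividing by it gave whole reads, to within 0.01, for 83.7% to 88.2% of nonzero values, and no count test was run. PCR copies are not independent molecules, and intervals cover counting error only.

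Entries were counted at a fold threshold of 2 on the norm values, and log2 ratios used a pseudocount of 1. Sequences were matched to GENCODE M21 transcripts and to hairpins and promoters of RefSeq (both GRCm38). The entries named were the 10 with the highest mean norm value, the 5 largest ratios in each direction and comparison among entries with a norm value of 100 or more in 1 of the 2 libraries, the entries with a transcript match, and those nearest the norm value of 10. Entries that resemble a miRNA, pair or overlap, or keep their side in both comparisons were named after their values were seen. The entries and the marker lists were chosen with earlier results of these data known. Alternatives changed the norm value floor, the scaling, the pseudocount, the fold threshold and the treatment of 0. The fold calls were tested on simulated data for sequences with a mean norm value of 100 or more. Low values, values at 0 and libraries of unequal depth were not covered by this. Computations ran in Python 3.11.15 with scipy 1.17.1, pandas 2.3.3 and numpy 2.4.6, and figures were drawn with matplotlib 3.10.9. 3 lines of the table were empty and not analysed here.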

Additional observations from a re-analysis of the deposited data

Results flagged for a closer look

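A few predicted entries, each chosen because its ratios went in opposite directions, differed between libraries in a way that neither depot nor diet alone describes. With 1 library per group, none of these differences was tested. PC-3p-854_9472 was lower in BAT-Exos than in vWAT-Exos on HFD (log2 ratio -0.73) and higher on LFD (2.11), a difference of -2.84 between the diets, and equally a difference of 2.84 between its diet ratios, 0.93 in vWAT-Exos and -1.91 in BAT-Exos. Its lowest value, in LFD vWAT-Exos, stands for approximately 792 reads. PC-3p-56833_64, with a norm value of 3.53 in HFD BAT-Exos, 29.7 in LFD BAT-Exos, 14.2 in HFD vWAT-Exos and 9.53 in LFD vWAT-Exos, had depot ratios of -2.01 on HFD and 1.64 on LFD, a difference of -3.65, and diet ratios of 0.58 in vWAT-Exos and -3.07 in BAT-Exos, a difference of 3.65, and its values stand for approximately 5, 36, 6 and 7 reads in that order of libraries. PC-5p-36057_108 (32.5, 70.2, 59.2 and 23.2 in the same order of libraries) had depot ratios of -0.87 on HFD and 1.60 on LFD, a difference of -2.47, and diet ratios of 1.36 in vWAT-Exos and -1.11 in BAT-Exos, a difference of 2.47. PC-5p-41146_93 (35.3, 38.8, 26.1 and 6.81) had diet ratios of 1.94 in vWAT-Exos and -0.14 in BAT-Exos, a difference of 2.07, of which the value in LFD vWAT-Exos stands for about 5 reads. These log2 ratios were taken without a pseudocount.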

How the results depend on the processing

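The number of entries followed the cutoff, with 494 predicted sequences at no minimum, 201 at a norm value of 5 (chosen after seeing the data) and 25 at 100. At a floor of 100 in 1 of the 2 libraries, 13 entries were higher and 3 lower in BAT-Exos on HFD (median log2 ratio 1.47), 15 and 3 on LFD (1.42), 0 higher and 1 lower on HFD in vWAT-Exos, and 5 of each in BAT-Exos. At a floor of 25 these counts were 35 and 5 (1.80), 54 higher on LFD (1.97), 3 higher and 3 lower on HFD in vWAT-Exos, while BAT-Exos had 10 and 22. With 10 or more in both libraries they were 14 and 2 (0.81), 28 and 3 (1.35), 1 higher and 2 lower on HFD in vWAT-Exos, while BAT-Exos had 9 and 15. Fewer entries met each of these floors, which by itself lowers the counts. At these floors no counts were made over all sequences, so no share stands beside them.

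Among alternatives chosen after seeing the data, replacing 0 by the value of 5 reads gave 37 entries higher in BAT-Exos on HFD (median 0.50), a median of 1.29 on LFD, and 8 higher and 4 lower of 60 on HFD in vWAT-Exos, beside 56 and 65 of all 611 sequences. Entries above 0 in both libraries gave 15 and 5 of 36 on HFD (0.61), 42 and 5 of 61 on LFD (1.38), and 4 and 3 of 37 in vWAT-Exos. Over all sequences above 0 in both libraries these counts were 151 and 166 of 506, 177 and 143 of 566, and 41 and 56 of 530. A pseudocount of 10 lowered the depot medians to 1.25 on HFD and 1.29 on LFD. A fold threshold of 4 left 3 entries lower in BAT-Exos on LFD, and in BAT-Exos 6 higher and 18 lower on HFD, and was not applied to all sequences. Scaling to library totals lowered the depot median on LFD to 1.50 and turned the diet median in vWAT-Exos to -0.058, and the depot log2 ratio of PC-3p-3327_1881 on LFD to -0.089. Choosing entries at 100 on LFD gave a depot median of 1.25 on HFD. Counting a single matching gene only left 1 of the 2 transcript matches. The depot medians stayed above 0 under every alternative run, but the scaling and the treatment of 0 were not changed together. On HFD the median was 0.50 with 0 replaced and 0.61 for entries above 0 in both libraries. Equal totals alone lowered the HFD log2 ratio of PC-3p-176_48011 from 1.72 to 0.68, a larger drop than either median. A shift of that size would put the HFD median below 0, so the BAT-Exos side on HFD was not shown to hold under both changes.

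No paired analysis was possible because each group had 1 library and the labels carry no replicate numbers. The depth of the vWAT-Exos libraries limits what a value of 0 there says, and no replicate measures the spread between mice or preparations.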
